A study of Mus musculus with 27 samples.

Results

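Chemokine receptors are the subject of the following results: 9 genes, Ccr1, Ccr2, Ccr3, Ccr7, Ccr9, Cxcr2, Cxcr4, Cxcr5 and Cx3cr1, out of 19935 genes measured on 27 arrays of mouse bone marrow cells. They were chosen by symbol from a list of receptor names, and each was read from the probe set annotated with that symbol and no other gene, the brightest one where there were several. Each of the 9 had exactly 1 such probe set.

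Chemokine receptors are G protein-coupled receptors on the surface of leukocytes. A receptor that binds its chemokine signals through the inhibitory G protein Gαi and steers the cell up the chemokine gradient, so the set of receptors a cell carries decides which tissue it can enter or leave. In bone marrow, Cxcr4 holds precursors and neutrophils near stromal Cxcl12, Cxcr2 draws mature neutrophils out, and Ccr2 lets monocytes leave for the blood. Dendritic cells change their receptors as they develop and mature.

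The cells came from the femurs and tibiae of C57BL/6 mice aged 8 to 12 weeks, with no genetic change, and were measured in 9 groups of 3 arrays. One group was unstimulated; whether those cells were fresh or cultured without cytokine is not stated in the labels. Flt3-L, the ligand of the receptor Flt3 and a growth factor for dendritic cell precursors, was given to the other 8 groups at about 200 ng/ml, from transfected B16 tumour cells, and 4 of these groups were taken after 12, 24 and 48 h and after 11 days. The other 4 groups were taken at the same times and also received cyclosporin A (CsA), an inhibitor of the phosphatase calcineurin and so of NFAT transcription factors, at 2 µg/ml from 30 min before Flt3-L until harvest. No vehicle group is named in the labels. The series describes the 3 samples of a group as biological replicates but does not say that they came from separate mice, so the p-values below measure the spread between these samples only.

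Whole marrow was cultured, and no cells were sorted. In such bulk RNA, fewer cells of a type and less RNA per cell cannot be told apart. The arrays had median intensities of 114.2 to 124.8 and correlated at 0.9964 or more within a group; 25 of 27 arrays resembled a replicate most, and the exceptions, array 3 of the CsA groups at 12 and 24 h, resembled array 3 of Flt3-L alone at the same time. The signal of the marker lists changed over the culture: neutrophil markers averaged 12.54 to 12.57 on the log2 scale on the unstimulated arrays and 8.08 to 8.22 after 11 days of Flt3-L alone, while the monocyte and macrophage list went from between 9.01 and 9.24 to between 11.60 and 11.71. By 11 days of Flt3-L alone, 10 of 10 conventional dendritic cell markers were higher than in unstimulated cells.

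All receptor values below are log2 intensities, so that a difference of 1 is a factor of 2, and a gene's level is not compared with another gene's. A change was called where limma's moderated test, fitted over all 27 arrays, gave an adjusted p under 0.05 after Benjamini-Hochberg adjustment over the 19935 genes. Changes of the receptors are given with their standard error (SE). A group mean was described as near background where it lay below the 95th percentile of the olfactory receptor genes of that group. Comparisons that share a group (the unstimulated arrays, or 1 Flt3-L group in both a time and a CsA comparison) are not independent of each other.

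**Figure D1:**
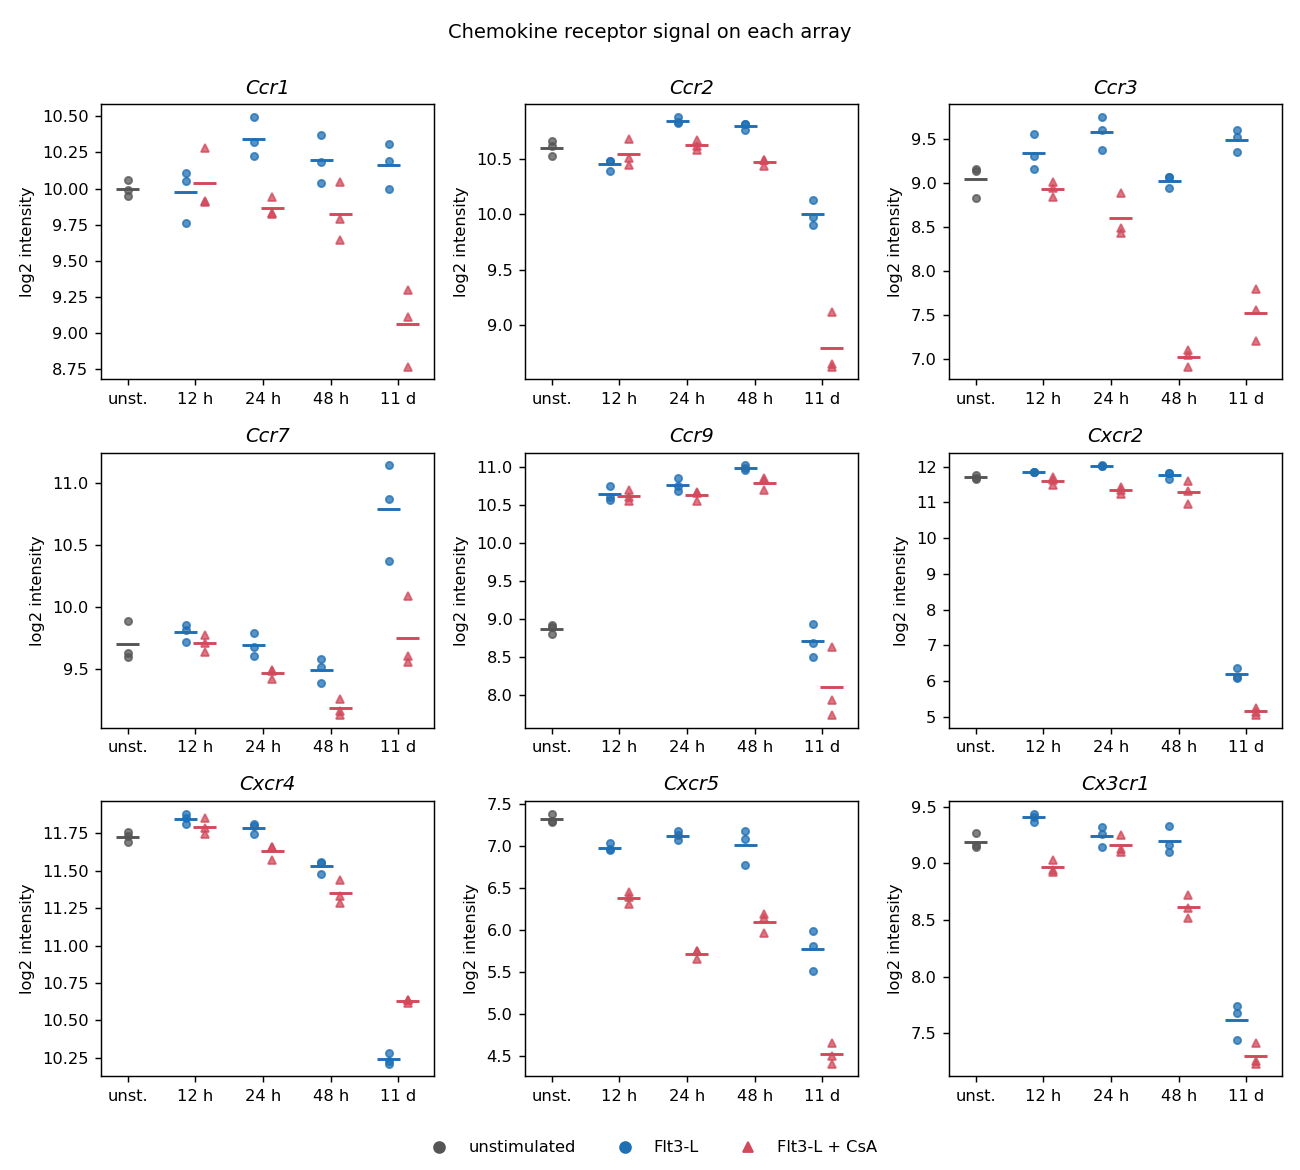
Log2 intensity of the 9 receptors on each of the 27 arrays, by time in culture, with 1 point per array and a bar at each group's mean; grey circles are unstimulated cells, blue circles Flt3-L alone and red triangles Flt3-L with CsA, and each panel has its own vertical range. The panels of Cxcr2, Cx3cr1 and Cxcr4 show low levels at 11 days, the Ccr9 panel shows a high plateau from 12 to 48 h, and the red points of Ccr3 and Cxcr5 lie below the blue ones at every time.

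Ccr3, Ccr1 and Ccr2 are the inflammatory CC receptors of the set, and their genes lie close together on mouse chromosome 9, in the RefSeq order Lztfl1, Ccr9, Fyco1, Cxcr6, Xcr1, Ccr1, Ccr1l1, Ccr3, Ccr2. The 250 bases before the RefSeq start of each (build GRCm38.p6, read 5′ to 3′ on the gene's own strand) are shown. These are 3 of the 8 receptors that fell with CsA at 11 days. The same stretch of Cxcr4, the receptor that rose, is also shown. Capitals mark GGAAA, the core that NFAT proteins bind, or its complement TTTCC.
Ccr1, chr9:123968693-123968942, minus strand: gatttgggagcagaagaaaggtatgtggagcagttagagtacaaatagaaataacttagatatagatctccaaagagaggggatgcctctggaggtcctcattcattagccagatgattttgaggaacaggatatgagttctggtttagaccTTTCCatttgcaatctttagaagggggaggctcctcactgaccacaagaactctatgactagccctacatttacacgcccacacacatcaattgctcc
Ccr3, chr9:124021721-124021970, plus strand: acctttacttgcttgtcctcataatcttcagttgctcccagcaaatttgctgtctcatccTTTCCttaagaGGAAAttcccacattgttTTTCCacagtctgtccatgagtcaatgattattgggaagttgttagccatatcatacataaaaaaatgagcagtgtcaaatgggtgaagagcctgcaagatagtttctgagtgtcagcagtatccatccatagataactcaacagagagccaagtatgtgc
Ccr2, chr9:124101933-124102182, plus strand: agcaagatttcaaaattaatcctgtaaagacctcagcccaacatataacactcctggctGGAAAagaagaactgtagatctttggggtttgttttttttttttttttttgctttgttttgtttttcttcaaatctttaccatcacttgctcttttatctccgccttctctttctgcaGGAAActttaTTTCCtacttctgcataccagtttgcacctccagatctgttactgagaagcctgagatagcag
Cxcr4, chr1:128592300-128592549, minus strand: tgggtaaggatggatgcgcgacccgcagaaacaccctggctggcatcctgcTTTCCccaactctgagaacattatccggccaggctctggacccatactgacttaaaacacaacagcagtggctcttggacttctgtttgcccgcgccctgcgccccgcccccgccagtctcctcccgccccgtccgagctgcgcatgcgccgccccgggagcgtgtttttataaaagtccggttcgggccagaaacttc
The core occurred 3 times in the stretch of Ccr3, 3 times in that of Ccr2, and once each in those of Ccr1 and Cxcr4. It also occurred once before Cx3cr1 and 0 times before Ccr9 and Cxcr2, and all 3 of these fell with CsA at 11 days too. The 7 genes counted here had an entry in the RefSeq table, and Ccr7 and Cxcr5 are named only. Of all 32851 stretches of this length, 55.6% held GGAAA on either strand, so that its presence is common. The longer motif GAGGAAGT, of the kind bound by the myeloid factor PU.1, occurred in 2.44% of all stretches on either strand and in 0 of the 7. Such matches are letters in a window, not measured binding.

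Ccr3, the receptor for eotaxins that eosinophils carry, had the widest gap of the 9 receptors between the cultures with and without CsA at 48 h and at 11 days. At 48 h its log2 intensity was 8.94, 9.07 and 9.07 on the 3 arrays of Flt3-L alone and 6.91, 7.04 and 7.10 with CsA. The groups lay far apart, and the change was -2.00 ± 0.13 (SE), a 4.01-fold lower signal (95% interval 3.31 to 4.86, adjusted p = 1.39e-09), the lowest of all 19935 genes at that time. At 11 days the arrays read 9.59, 9.35 and 9.52 with Flt3-L alone and 7.79, 7.20 and 7.56 with CsA, again with no overlap, and the change was -1.97 ± 0.13 (3.92-fold, adjusted p = 7.03e-11), rank 15 from the bottom.

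The gap in Ccr3 was smaller at the earlier times. At 24 h the arrays read 9.37, 9.59 and 9.75 with Flt3-L alone and 8.49, 8.43 and 8.88 with CsA, and Ccr3 fell by 0.97 on the log2 scale (SE 0.13, adjusted p = 5.9e-05). At 12 h the values were 9.16, 9.30 and 9.55 against 8.84, 8.94 and 9.01; the arrays did not overlap, but the difference of -0.41 ± 0.13 missed the threshold (adjusted p = 0.0647). It passed without CsA array 3 (-0.45, adjusted p = 0.0459). Averaged over 12, 24 and 48 h the change was -1.13 ± 0.08, and the change at 11 days was larger by 0.84 ± 0.15 in the same direction (adjusted p = 0.000422).

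With Flt3-L alone, Ccr3 moved little. Unstimulated cells gave 9.15, 8.83 and 9.13. The signal was higher at 24 h by 0.53 ± 0.13 (adjusted p = 0.00239) and at 11 days by 0.45 ± 0.13 (adjusted p = 0.00589), not called at 48 h (-0.01 ± 0.13), and at 12 h it stood 0.30 ± 0.13 higher without passing (adjusted p = 0.0899, or 0.0475 with the replicate number as a block). The call at 11 days ended without unstimulated array 2 (0.35, adjusted p = 0.0519). In the order of group means the 24 h, 11 day and 12 h groups of Flt3-L alone overlapped each other at the top, and the CsA groups at 11 days and then 48 h stood apart at the bottom.

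Markers of eosinophils took another course than Ccr3 with Flt3-L alone. Their mean log2 intensity was 10.19 to 10.33 on the unstimulated arrays, 8.78 to 8.96 after 48 h and 6.68 to 6.77 after 11 days of Flt3-L alone, and 6 of 6 were lower than in unstimulated cells at 11 days (median -4.44), with Epx, Prg3 and Alox15 near background. Ccr3 was higher at that time. With CsA, 6 of 6 eosinophil markers fell at 24 h (median -0.88, Epx, eosinophil peroxidase, by -1.37 ± 0.12). At 48 h 6 of 6 fell (median -0.84, Alox15 by -2.00 ± 0.12, Il5ra, the interleukin 5 receptor, by -1.40 ± 0.13 to near background). At 11 days 4 of 6 fell (median -0.50), when the list averaged 6.18 to 6.22 with CsA and 3 of 6 were near background. Basophils also carry Ccr3, and of 7 basophil and mast cell markers 4, 6 and 4 fell with CsA at 24 h, 48 h and 11 days (medians -0.45, -0.59 and -0.33). The list averaged 8.12 to 8.33 with Flt3-L alone and 7.49 to 7.65 with CsA at 48 h. Near background at these 3 times were 1, 2 and 5 of the 7 with CsA, and 0, 1 and 3 with Flt3-L alone. The part of eosinophil and basophil numbers in the Ccr3 change was not tested.

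Ccr1, a receptor for Ccl3, Ccl5 and related inflammatory chemokines on monocytes and neutrophils, was the steadiest of the 9, with group means from 9.06 to 10.35. At 11 days the arrays read 10.00, 10.31 and 10.19 with Flt3-L alone and 9.11, 9.30 and 8.77 with CsA. The groups did not overlap, and Ccr1 fell by 1.11 on the log2 scale (SE 0.13, 2.15-fold, adjusted p = 6.07e-07). The CsA group at 11 days was the only one of the 9 whose arrays lay apart from its neighbour in the order of means.

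The earlier differences in Ccr1 were small. At 24 h the arrays read 10.22, 10.50 and 10.32 against 9.82, 9.95 and 9.83 with CsA, a fall of 0.48 on the log2 scale (SE 0.13, adjusted p = 0.0326). That call ended when any of 5 of the 6 arrays was left out, Flt3-L array 1 being the exception (adjusted p from 0.0537 to 0.171, the latter without Flt3-L array 2, where the change was -0.41). At 48 h the groups overlapped, at 10.04, 10.37 and 10.18 against 9.64, 10.05 and 9.79, and the change of -0.37 ± 0.13 missed the threshold (adjusted p = 0.116), but passed with the replicate number as a block (adjusted p = 0.00676) or with array weights (adjusted p = 0.0476). At 12 h the change was 0.06 ± 0.13. With Flt3-L alone, Ccr1 differed from unstimulated cells only at 24 h (0.35 ± 0.13, adjusted p = 0.0382), a call that ended without any of 5 of the 6 arrays (adjusted p from 0.0531 to 0.162, changes from 0.27 to 0.38), Flt3-L array 1 being the exception.

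Ccr2, the Ccl2 receptor that monocytes need to leave the marrow, moved by 0.25 or less in 48 h of Flt3-L alone and was lower at 11 days in both cultures. Unstimulated cells gave 10.53, 10.66 and 10.62. After 11 days of Flt3-L alone the arrays read 9.97, 10.13 and 9.90, a fall of 0.60 on the log2 scale against unstimulated cells (SE 0.09, 1.51-fold, adjusted p = 2.06e-06). With CsA at 11 days they read 9.11, 8.64 and 8.62, below every array of Flt3-L alone, and the CsA change was -1.21 ± 0.09 (2.32-fold, adjusted p = 2.69e-10).

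Before 11 days the CsA cultures differed little in Ccr2. The change was 0.10 ± 0.09 at 12 h, with overlapping arrays, and -0.22 ± 0.09 at 24 h (adjusted p = 0.22), with arrays apart. At 48 h the arrays read 10.76, 10.82 and 10.82 with Flt3-L alone and 10.49, 10.49 and 10.44 with CsA, and the fall of 0.33 on the log2 scale (SE 0.09, adjusted p = 0.0309) passed only with all 6 arrays (adjusted p from 0.0589 to 0.11 without 1 of them). The change at 11 days was larger than the mean of the earlier times by 1.06 ± 0.10 in the downward direction (adjusted p = 5.81e-08). Against unstimulated cells Ccr2 was higher at 24 h of Flt3-L alone by 0.25 ± 0.09 (adjusted p = 0.0322), a call that ended without any array but unstimulated array 2 (adjusted p from 0.0539 to 0.121).

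Monocyte and macrophage markers did not fall with Ccr2: 10 of 10 were higher after 11 days of Flt3-L alone than in unstimulated cells (median 2.60), and with CsA at 11 days 0 of 10 were called in limma's fit (0 also at an unadjusted p under 0.05), with a median change of 0.11. The list averaged 11.60 to 11.71 on the arrays of Flt3-L alone and 11.70 to 11.75 with CsA.

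Cxcr2 and Cxcr4 pull neutrophils in opposite directions, Cxcr2 out of the marrow towards Cxcl1 and Cxcl2 and Cxcr4 back towards Cxcl12. Cxcr2 had the widest range of the 9 genes, 6.87 log2 units between its highest and lowest group means. Unstimulated cells gave 11.66, 11.76 and 11.68. After 11 days of Flt3-L alone the arrays read 6.11, 6.10 and 6.37, a change of -5.50 ± 0.11 and a 45.4-fold lower signal (95% interval 39.0 to 52.8, adjusted p = 1.71e-23). With CsA at 11 days the arrays read 5.15, 5.26 and 5.05, apart from Flt3-L alone and near background, so that the further change of -1.04 ± 0.11 (2.06-fold, adjusted p = 7.22e-08) was measured down to the floor of the array.

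Cxcr2 was also lower with CsA at times when it was still bright. At 24 h the arrays read 12.03, 12.02 and 12.03 with Flt3-L alone and 11.23, 11.43 and 11.36 with CsA, and Cxcr2 fell by 0.69 on the log2 scale (SE 0.11, 1.61-fold, adjusted p = 0.000209). At 48 h the values were 11.66, 11.82 and 11.81 against 10.95, 11.59 and 11.32, and the change was -0.48 ± 0.11 (adjusted p = 0.00709). CsA array 1 was the lowest at 48 h; without it the change was -0.31 (adjusted p = 0.0754), and with only the 48 h groups fitted the adjusted p was 0.153. At 12 h the arrays did not overlap, at 11.86, 11.86 and 11.84 against 11.48, 11.72 and 11.63, but the change of -0.25 ± 0.11 missed the threshold (adjusted p = 0.144, or 0.00924 with array weights).

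Neutrophil markers moved with Cxcr2 at 11 days but less so before. Of 11 markers, 11 were lower after 11 days of Flt3-L alone than in unstimulated cells (median -4.86), and 9 fell with CsA at 11 days (median -1.29; Ngp, a granule protein, by -2.12 ± 0.12 and Lcn2, lipocalin, by -1.97 ± 0.07), when 5 of 11 were near background with CsA, among them Ly6g, S100a8 and S100a9. At 24 h, when Cxcr2 was lower with CsA, 1 of 11 neutrophil markers fell and the list's median was -0.02. The list then averaged 12.45 to 12.48 with Flt3-L alone and 12.34 to 12.36 with CsA. At 48 h the count and the median were the same. The marker was Ly6g both times, with changes of -0.72 and -0.85 (SE 0.13). At an unadjusted p under 0.05 in limma's fit, 3 of 11 were lower and 0 higher at each of these times. The part of neutrophil numbers in the Cxcr2 changes was not tested.

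Cxcr4 was the only one of the 9 receptors that was higher with CsA, and only at 11 days. The arrays then read 10.21, 10.22 and 10.28 with Flt3-L alone and 10.64, 10.61 and 10.64 with CsA. The groups did not overlap, and the change was 0.39 ± 0.05 (1.31-fold, adjusted p = 1.27e-06). Both lay below the unstimulated arrays, at 11.69, 11.73 and 11.76: against unstimulated cells Cxcr4 changed by -1.49 ± 0.05 at 11 days of Flt3-L alone (2.81-fold, adjusted p = 3.84e-19).

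At the earlier times the CsA difference in Cxcr4 was small and in the other direction. At 48 h the arrays read 11.48, 11.55 and 11.56 with Flt3-L alone and 11.29, 11.44 and 11.33 with CsA, and Cxcr4 fell by 0.18 on the log2 scale (SE 0.05, adjusted p = 0.0289). The call ended without Flt3-L array 2, Flt3-L array 3, CsA array 1 or CsA array 3 (adjusted p from 0.106 to 0.177). It also ended in limma fits of only the 48 h groups (adjusted p = 0.248) or with array medians subtracted (adjusted p = 0.0503). At 24 h the change of -0.16 ± 0.05 missed the threshold (adjusted p = 0.0752) and passed with the replicate number as a block (adjusted p = 0.0254); at 12 h it was -0.05 ± 0.05. The change at 11 days exceeded the mean of the earlier ones by 0.52 ± 0.06 (adjusted p = 2.64e-07). With Flt3-L alone, Cxcr4 was 0.12 ± 0.05 higher at 12 h (adjusted p = 0.0499), a call lost without any 1 of the 6 arrays (adjusted p from 0.0529 to 0.155), and it was lower at 48 h, with a change of -0.20 ± 0.05 (adjusted p = 0.00162).

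Cx3cr1, the fractalkine receptor of monocytes and dendritic cell precursors, moved by 0.21 or less in 48 h of Flt3-L alone and was low at 11 days. Unstimulated cells gave 9.14, 9.16 and 9.26, and the 11 day arrays 7.44, 7.67 and 7.74, a change of -1.57 ± 0.08 (2.97-fold, adjusted p = 1.6e-15). With CsA it was lower at 12 h, where the arrays read 8.94, 9.03 and 8.92 against 9.41, 9.44 and 9.37 (-0.44 ± 0.08, adjusted p = 0.00136), and at 48 h, where they read 8.52, 8.72 and 8.60 against 9.16, 9.33 and 9.10 (-0.58 ± 0.08, adjusted p = 2.14e-05). Neither pair of groups overlapped. At 24 h the arrays did overlap, at 9.10, 9.25 and 9.13 against 9.26, 9.32 and 9.15, and the change was -0.08 ± 0.08 (adjusted p = 0.775).

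At 11 days the CsA arrays of Cx3cr1 read 7.25, 7.23 and 7.41, just below Flt3-L alone, and the fall of 0.32 on the log2 scale (SE 0.08, adjusted p = 0.00441) had an adjusted p of 0.0563 when only the 11 day groups were fitted. The difference between this change and the mean of the earlier ones was 0.05 ± 0.09 (adjusted p = 0.767). With Flt3-L alone Cx3cr1 was 0.21 ± 0.08 higher at 12 h than in unstimulated cells (adjusted p = 0.0285), a call that ended without unstimulated array 1 or 2 or Flt3-L array 1 or 2 (adjusted p from 0.0656 to 0.0939).

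Cxcr5 and Ccr7 lead lymphocytes and dendritic cells to and within lymphoid organs: Cxcr5 binds Cxcl13 of B cell follicles, and Ccr7 binds Ccl19 and Ccl21 of T cell zones. Cxcr5 was the only receptor whose arrays with CsA lay below those with Flt3-L alone at all 4 times with every change called. At 24 h the arrays read 7.17, 7.07 and 7.13 with Flt3-L alone and 5.75, 5.65 and 5.75 with CsA, and the change was -1.41 ± 0.10 (2.65-fold, 95% interval 2.30 to 3.05, adjusted p = 3.57e-09). At 12 h they read 7.03, 6.95 and 6.96 against 6.40, 6.45 and 6.31 (-0.60 ± 0.10, 1.51-fold, adjusted p = 0.000866).

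The fall in Cxcr5 with CsA was -0.92 ± 0.10 at 48 h (adjusted p = 1.32e-06), with arrays at 6.78, 7.09 and 7.18 against 6.14, 5.96 and 6.18, and -1.25 ± 0.10 at 11 days (adjusted p = 8.38e-10), with arrays at 5.81, 5.51 and 5.99 against 4.49, 4.41 and 4.65. Its CsA groups at 24 h, 48 h and 11 days and its 11 day group of Flt3-L alone were near background. The signal is thus low, and a change measured down to that floor can be smaller than the change in RNA. With Flt3-L alone Cxcr5 fell against unstimulated cells, at 7.38, 7.29 and 7.28, by 0.34 at 12 h (SE 0.10, adjusted p = 0.00803), by 0.31 at 48 h (SE 0.10, adjusted p = 0.0145) and by 1.55 at 11 days (SE 0.10, adjusted p = 3.78e-13) on the log2 scale. The 48 h call ended without unstimulated array 1 (-0.27, adjusted p = 0.0603) or Flt3-L array 1 (-0.19, adjusted p = 0.152). The difference between the CsA change at 11 days and the mean of the earlier ones was -0.28 ± 0.11 (adjusted p = 0.114), or -0.41 without Flt3-L array 2 of 11 days (adjusted p = 0.0126).

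B lineage markers also fell with CsA, by less at the median than Cxcr5. Of 13 markers, 2 fell at 12 h, 5 at 24 h, 9 at 48 h and 7 at 11 days, with medians of -0.20, -0.34, -0.43 and -0.36. At 11 days 1 rose, and 0 were called higher before. Single markers fell by more than the median: Fcer2a by 0.43, 1.01 and 0.68 on the log2 scale at 12, 24 and 48 h (SE 0.11). Rag1 fell by 0.51, 0.54 and 0.82 (SE 0.14). Ms4a1, which encodes CD20, fell by 3.31 (SE 0.15, to near background) on the log2 scale at 11 days, and Cd79b, a chain of the B cell receptor, changed by -2.35 ± 0.10. The list averaged 9.47 to 9.66 on the arrays of Flt3-L alone and 9.03 to 9.29 with CsA at 24 h, and 7.31 to 7.45 against 6.55 to 6.58 at 11 days, when 6 of 13 were near background with CsA. The part of B lineage cells in the Cxcr5 change was not tested.

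Ccr7, which maturing dendritic cells acquire, was not called different from unstimulated cells in the first 48 h of Flt3-L alone and was higher at 11 days. Unstimulated cells gave 9.89, 9.63 and 9.60, and the 11 day arrays 10.37, 10.87 and 11.14, all higher, for a change of 1.09 ± 0.13 (2.13-fold, adjusted p = 1.11e-07). With CsA at 11 days the arrays read 10.09, 9.60 and 9.56. They lay below every array of Flt3-L alone and over the range of the unstimulated cells, and the CsA change was -1.04 ± 0.13 (2.06-fold, adjusted p = 2.84e-06).

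At the earlier times the CsA change in Ccr7 did not pass: it was -0.09 ± 0.13 at 12 h, -0.23 ± 0.13 at 24 h and -0.31 ± 0.13 at 48 h (adjusted p = 0.692, 0.533 and 0.251). The arrays overlapped at 12 h and lay apart at 24 and 48 h. The change at 11 days was larger in the same direction by 0.83 ± 0.16 (adjusted p = 0.000513). Among 8 dendritic cell maturation markers, 7 were higher after 11 days of Flt3-L alone than in unstimulated cells (median 1.31), and 5 fell with CsA at 11 days (median -0.30; Fscn1, the actin-bundling protein fascin, by -1.03 ± 0.14), on arrays that averaged 8.89 to 9.27 with Flt3-L alone and 8.47 to 8.73 with CsA. Their part in the Ccr7 change was not tested.

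Ccr9, the Ccl25 receptor of thymus-homing progenitors, gut-homing lymphocytes and plasmacytoid dendritic cells, rose early with Flt3-L and was back at 11 days. Unstimulated cells gave 8.93, 8.91 and 8.81. With Flt3-L alone the arrays read 10.76, 10.58 and 10.61 at 12 h, 10.86, 10.69 and 10.76 at 24 h, 11.03, 10.97 and 11.00 at 48 h and 8.94, 8.50 and 8.70 at 11 days. All arrays from 12 to 48 h stood above the unstimulated and the 11 day arrays. The changes against unstimulated cells were 1.77 ± 0.14 at 12 h (3.41-fold, adjusted p = 1.67e-10), 1.89 ± 0.14 at 24 h (3.70-fold, adjusted p = 2.77e-11) and 2.12 ± 0.14 at 48 h (4.34-fold, 95% interval 3.56 to 5.28, adjusted p = 1.99e-12).

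Between 48 h and 11 days of Flt3-L alone Ccr9 fell by 2.28 on the log2 scale (SE 0.14, 4.86-fold, adjusted p = 4.37e-13), to a level -0.17 from that of unstimulated cells (SE 0.14, adjusted p = 0.351). The early rise was also there with CsA. The arrays with CsA read 10.70, 10.56 and 10.62 at 12 h, 10.68, 10.56 and 10.66 at 24 h and 10.87, 10.70 and 10.83 at 48 h, and the changes were -0.02, -0.14 and -0.20, each ± 0.14 (adjusted p = 0.93, 0.806 and 0.587). The 95% interval at 48 h ran from -0.48 to 0.09, and the arrays overlapped at 12 h and lay just apart at 24 and 48 h.

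At 11 days the arrays of Ccr9 with CsA read 8.64, 7.74 and 7.94 and overlapped those of Flt3-L alone. The change of -0.61 ± 0.14 passed (1.52-fold, adjusted p = 0.0029) and had an adjusted p of 0.117 when only the 11 day groups were fitted. Of 6 plasmacytoid dendritic cell markers, 2 were higher at 12 h of Flt3-L alone than in unstimulated cells (median 0.13). They were Siglech (0.54 ± 0.08) and Cox6a2 (0.54 ± 0.15), beside a Ccr9 change of 1.77. At 24 h (median 0.29) and at 48 h (median 0.51) 5 were higher, and 6 of 6 fell between 48 h and 11 days (median -1.14). With CsA 0 of 6 were called at 12 h and 0 at 24 h in limma's fit (1 and 2 lower at an unadjusted p under 0.05), and 2 of 6 fell at 48 h. At 11 days 3 fell and 2 rose (median -0.23), among them Spib, a transcription factor of these cells, at -1.59 ± 0.11 and Cox6a2 at 1.63 ± 0.15. The part of plasmacytoid dendritic cells in the Ccr9 changes was not tested.

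**Figure D2:**
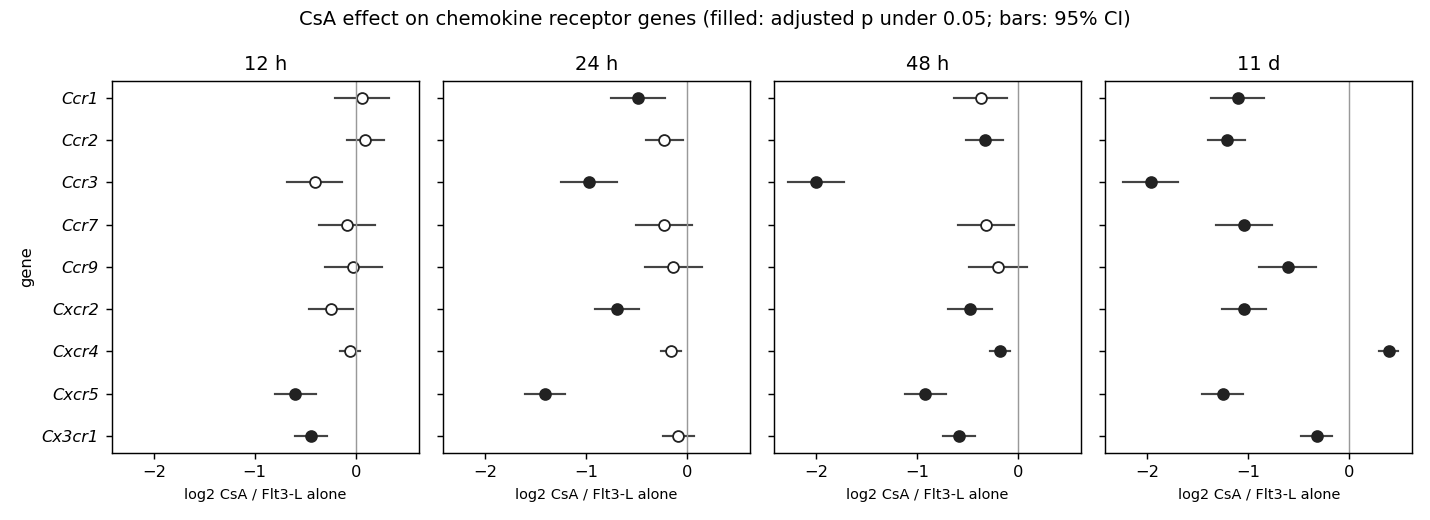
Log2 change of each receptor with CsA against Flt3-L alone at 12, 24 and 48 h and 11 days, with bars for the 95% interval of limma's fit (3 arrays a group); filled points passed an adjusted p of 0.05 and open points did not. Ccr3 reaches -2.00 at 48 h and -1.97 at 11 days, and Cxcr4 at 11 days is the one called change above 0, at 0.39.

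Counted together, the receptors were mostly lower with CsA, and more were called at 11 days than at 12 h. At 12 h 2 of 9 fell, Cxcr5 and Cx3cr1, where 3.91% of all genes were called lower. At 24 h 4 of 9 fell, Ccr1, Ccr3, Cxcr2 and Cxcr5, against 2.19% of all genes, and 8 of 9 had all arrays with CsA below all arrays of Flt3-L alone, against 9.19% of all genes. At 48 h 6 of 9 fell, all but Ccr1, Ccr7 and Ccr9, against 2.34%. Again 8 of 9 had all arrays with CsA below the others, against 7.45%. With 1 array left out, 3 to 4 were called at 24 h and 3 to 5 at 48 h, so the calls do not separate these times. At 11 days 8 of 9 fell against 7.08% of all genes, and 1 rose, Cxcr4, against 4.92%. Among those that fell, Cxcr5 was near background in both groups then, and Cxcr2 with CsA.

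The median log2 change with CsA over the 9 receptors was -0.09, -0.23, -0.37 and -1.04 at 12, 24 and 48 h and 11 days, where the median over all genes was -0.04, -0.01, 0.02 and 0.03. In limma's fit 0 of 9 receptors were called higher at 12, 24 or 48 h, where 2.82%, 1.6% and 2.17% of all genes were, and 0 were higher at an unadjusted p under 0.05. All 9 changes were negative at 24 h and at 48 h, also after the values were quantile normalized again or each array's median was subtracted. Averaged over 12, 24 and 48 h, 6 of 9 receptors fell (all but Ccr2, Ccr7 and Ccr9) and 0 rose (0 also at an unadjusted p under 0.05), where 6.41% of all genes were called lower and 7% higher in limma's fit. The change at 11 days was further down than this mean for 6 receptors (Ccr1, Ccr2, Ccr3, Ccr7, Ccr9, Cxcr2), where 6.7% of all genes were called in that direction, and further up for Cxcr4, where the share was 5.21%.

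The other marker lists differed with CsA at 11 days: 8 of 10 conventional dendritic cell markers fell (median -0.56), 5 of 8 of T and NK cells (median -0.35), 4 of 5 of progenitors (median -0.65) and 2 of 5 of stromal and endothelial cells, where 1 rose (median -0.27). Of 6 erythroid markers 1 fell, and their median was 0.17. Many of these signals were low: 7 of 8 T and NK cell markers were near background with CsA and 4 of 8 with Flt3-L alone. So were 2 of 5 progenitor markers with CsA, and 3 of 6 erythroid markers in both groups. The part of these cell types in the receptor counts was not tested.

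**Figure D3:**
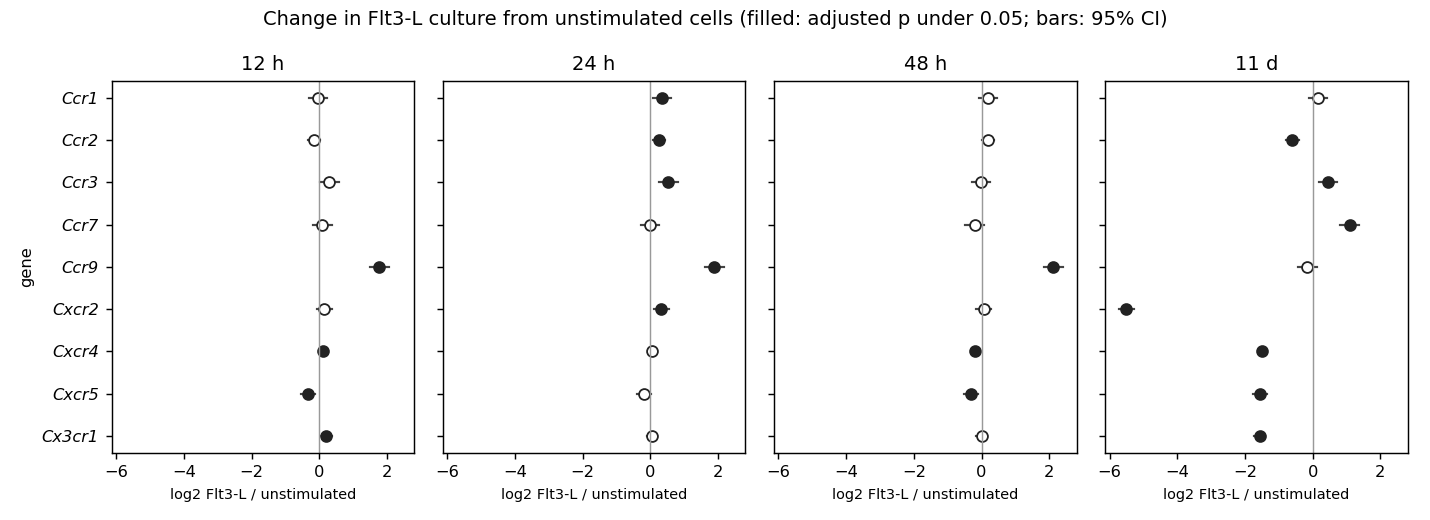
Log2 change of each receptor at 12, 24 and 48 h and 11 days of Flt3-L alone against unstimulated cells, with bars for the 95% interval of limma's fit (3 arrays a group); filled points passed an adjusted p of 0.05 and open points did not. Ccr9 lies at 1.77, 1.89 and 2.12 in the first 48 h, and Cxcr2 lies lowest at 11 days.

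With Flt3-L alone, the receptors called over the first 48 h moved by little, apart from Ccr9. At 12 h 3 of 9 were higher than in unstimulated cells (Ccr9, Cxcr4, Cx3cr1) and 1 was lower (Cxcr5), where 17.8% and 18.1% of all genes were called in these directions. At 24 h 5 were higher (Ccr1, Ccr2, Ccr3, Ccr9, Cxcr2) against 17.9% of all genes, and 0 were lower (0 also at an unadjusted p under 0.05) against 17.7%; at 48 h 1 was higher (Ccr9) against 18.5% and 2 were lower (Cxcr4, Cxcr5) against 18.6%. Apart from Ccr9 the changes called in these 48 h were 0.53 or less in size. At 11 days 2 were higher (Ccr3, Ccr7) against 27.2% of all genes, and 5 were lower (Ccr2, Cxcr2, Cxcr4, Cxcr5, Cx3cr1) against 24.8%. From 48 h to 11 days 2 rose (Ccr3, Ccr7), where 24.2% of all genes did, and 6 fell, where 18.8% did (Ccr2, Ccr9, Cxcr2, Cxcr4, Cxcr5, Cx3cr1). Ccr1 was not called between these times (-0.03 ± 0.13). Ccr1 and Ccr9 were not called at 11 days against unstimulated cells (0.17 and -0.17, adjusted p = 0.316 and 0.351).

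**Figure D4:**
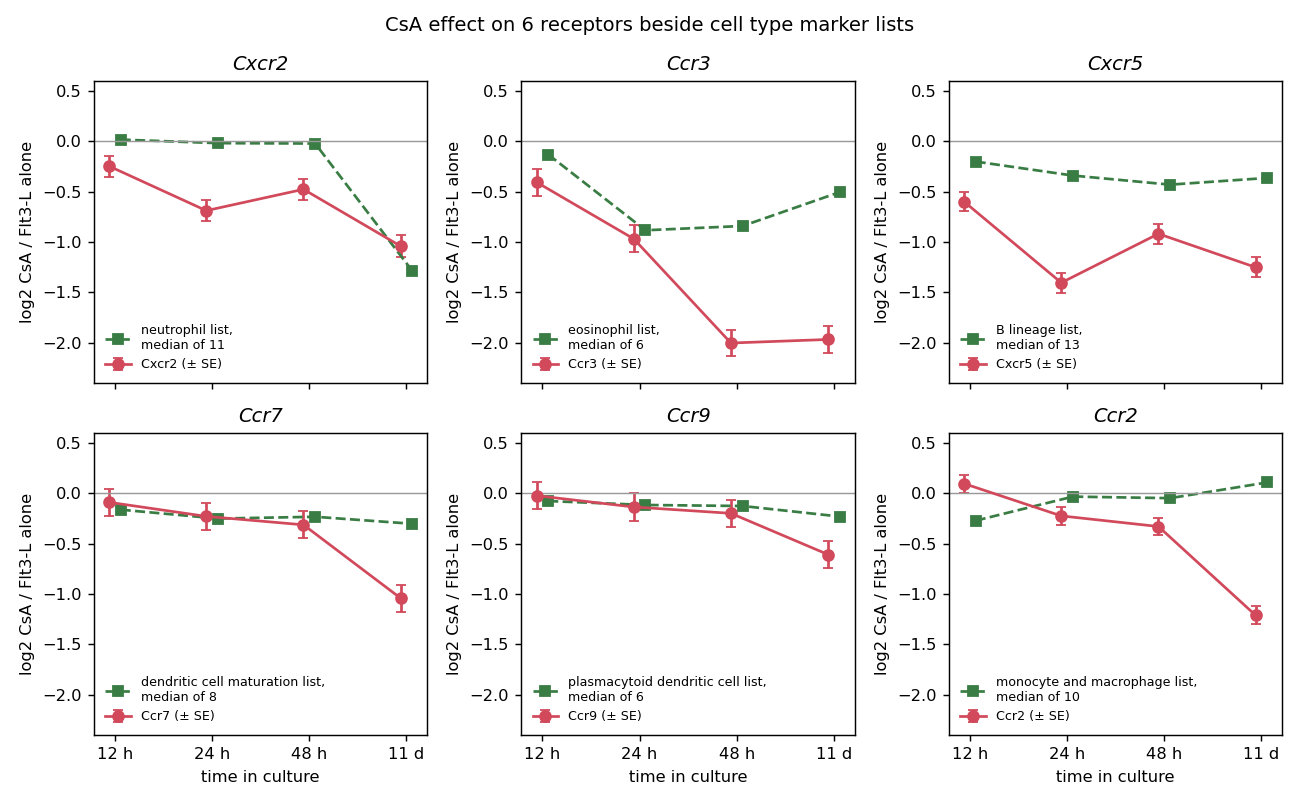
Log2 change with CsA against Flt3-L alone for 6 receptors (red circles, with the standard error of limma's fit, 3 arrays a group) and for the median of a marker list of a cell type (green squares, 6 to 13 genes), by time in culture. Cxcr2 lies below the neutrophil median up to 48 h and near it at 11 days, and Ccr2 at 11 days lies at -1.21 where the monocyte and macrophage median is 0.11.

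Of the 15 other chemokine receptors measured, 3 fell at 12 h, 3 at 24 h, 2 at 48 h and 4 at 11 days with CsA, and 0 were called higher at any time in limma's fit (1 at each time at an unadjusted p under 0.05); the medians were -0.07, -0.01, -0.03 and 0.02. Cmklr1, the chemerin receptor, fell by 0.79, 0.60 and 1.21 on the log2 scale at 12 h, 48 h and 11 days (SE 0.09). Cxcr1, which like Cxcr2 is found on neutrophils, fell by 0.80 at 24 h (SE 0.10), and Ccr6, the Ccl20 receptor, by 0.31, 0.45 and 0.47 at 12, 24 and 48 h (SE 0.07), to near background at 24 and 48 h. Xcr1, a marker of cross-presenting dendritic cells that lies next to Ccr1, was 4.09 higher after 11 days of Flt3-L alone than in unstimulated cells, where it was near background (SE 0.17), and fell by 1.49 with CsA then (2.81-fold).

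Other genes in the chromosome 9 cluster differed in their course. Fyco1, between Ccr9 and Cxcr6, changed with CsA by -0.03, 0.11, 0.12 and 0.06 at the 4 times, with no call. Lztfl1, beside Ccr9, was higher with CsA by 0.51 at 12 h and 0.32 at 24 h, and its changes of 0.21 at 48 h and -0.03 at 11 days were not called. Cxcr6 was called lower with CsA at 11 days (-0.59 ± 0.11, adjusted p = 0.000567), with both groups near background, and not at the earlier times. Ccr1l1, between Ccr1 and Ccr3, was near background in both groups at every time.

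Ligands of the 9 receptors went in both directions. Of 21 ligand genes, 2 rose and 4 fell with CsA at 12 h, 3 fell at 24 h, 2 rose and 3 fell at 48 h, and 3 rose and 5 fell at 11 days, with medians between -0.07 and 0.03. Ccl6, a Ccr1 ligand made by myeloid cells, fell by 0.68, 1.16 and 0.85 on the log2 scale at 12, 24 and 48 h (SE 0.06). The Ccr2 ligands Ccl2 and Ccl7 were higher by 0.42 and 0.48 at 12 h and by 0.99 and 0.98 at 48 h, and Ccl2 fell by 0.51 at 11 days (SE 0.12 for Ccl2 and 0.14 for Ccl7). Ccl5, a ligand of Ccr1 and Ccr3, fell by 1.22 at 11 days (SE 0.12, 2.33-fold), and Ppbp, the platelet ligand of Cxcr2, by 1.17 (SE 0.14). With Flt3-L alone Cxcl12, the stromal ligand of Cxcr4, fell against unstimulated cells by 1.54, 1.62, 1.75 and 1.94 at 12, 24 and 48 h and 11 days (SE 0.06), and Cxcl2, a Cxcr2 ligand, by 4.49 at 11 days (SE 0.22). Cxcl12 was near background at all 4 times and Cxcl2 at 11 days, so that these falls were measured down to the floor of the array.

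Of 21 genes for the G proteins, kinases and regulators that carry or end the receptor signal, 1 rose and 2 fell with CsA at 12 h, 2 fell at 24 h, 3 fell at 48 h, and 2 rose and 4 fell at 11 days, with medians from -0.08 to -0.03. Rgs2, which shortens G protein signals, fell by 0.31, 0.53, 0.41 and 0.39 at the 4 times (SE 0.06). Rgs16, of the same family, fell by 1.04 at 11 days (SE 0.09), and Plcb2, the phospholipase downstream of the receptors, by 0.50 (SE 0.06). With Flt3-L alone at 11 days 8 of 21 rose and 9 fell against unstimulated cells, with Rgs1 at 1.44 (SE 0.14) and Grk6, a kinase that desensitises Cxcr4, at -1.45 (SE 0.10).

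For each receptor the genes with the most similar profile over the 27 arrays were found by Pearson's r, over 18255 named genes; the arrays share groups and time points, so r is a description. Cxcr2 was closest to Retnlg, a neutrophil gene on the marker list (r = 0.998), Treml2 and Alox5, whose r was 0.838, 0.711 and 0.734 over the 21 arrays before 11 days. Ccr3 was closest to Csf1, macrophage colony-stimulating factor (0.903, and 0.921 before 11 days), Smap2 and Fam102a. Ccr9 was closest to Smg1, Id3 and Tex2 (0.971, 0.970 and 0.968, and 0.929, 0.921 and 0.950 before 11 days). For these 3 receptors r was 0.711 or above without the 11 day arrays, as it was for Cxcr4, Cxcr5 and Cx3cr1.

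Cxcr4 was closest to Ptbp3, Susd1 and Ifnlr1 (0.987, 0.985 and 0.984, and 0.846, 0.874 and 0.966 before 11 days), Cxcr5 to Grap, Gpr18 and Gpr174 (0.941, 0.934 and 0.933, and 0.829, 0.904 and 0.896), and Cx3cr1 to Stk4, R3hdm4 and Tbc1d10c (0.981, 0.981 and 0.980, and 0.818, 0.810 and 0.782). For the other 3 receptors at least 1 of the closest genes had an r below 0.711 before 11 days. Ccr2 was closest to Map4k1, Lsp1 and Ms4a1 (0.982, 0.977 and 0.965), with r of 0.607, 0.697 and 0.435 before 11 days. Ccr7 was closest to Ccl5 (0.910, and 0.690 before 11 days), Traf1 (0.883, and 0.688) and Tmtc2 (0.872, and 0.302), and Ccr1 to Samhd1 (0.893, and 0.806), Plekhg2 (0.862, and 0.515) and Septin6 (0.851, and 0.515).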

How the data were processed

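RNA of 27 mouse bone marrow samples was measured on 1-colour Affymetrix arrays, 3 in each of 9 groups taken from the sample labels. The deposited values are linear intensities per probe set (5.2 to 18180.7), made by the authors with RMA (background correction, quantile normalization and summary of probes), per the submitters' processing notes; the version and the genome build are not given in the sources used here. RMA compresses low signals, and arrays give no counts: their number limits the precision.

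Of 28815 probe sets, 21780 carried a single gene symbol in the platform annotation, 1605 several and 5430 none. Genes kept these symbols, and 19852 of them were matched to RefSeq by Entrez ID, to find list genes under their current symbols. For each of 19935 genes the probe set with the highest mean was used. Log2 was taken and limma 3.58.1 (R 4.3.3) fitted group means over all arrays, with eBayes and Benjamini-Hochberg adjustment within each comparison; the fit was tested on simulated data. Tables were made in Python 3.11.15 (numpy 2.4.6, pandas 2.3.3) and figures in matplotlib 3.10.9. Promoter stretches came from RefSeq.

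Members, lists and tests were chosen with earlier results of these data known. The rule for named genes took all 9 members, and from each list at most the 4 called genes of largest change. List genes with no single-symbol probe set were not analysed here.

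Arrays with the same replicate number deviated together in every pair (correlation over 0.1) in 4 comparisons: CsA against Flt3-L alone at 24 h (0.346 to 0.398) and at 48 h (0.178 to 0.539), and Flt3-L against unstimulated cells at 12 h (0.103 to 0.196) and at 24 h (0.126 to 0.347). In the other comparisons of 2 groups they did not; the pairing comes from these data, not from the labels. Alternatives were the replicate block, an intensity trend with robust variances, array weights, a second quantile normalization, median centring, a filter on dim genes, averaging of probe sets per gene, only the compared groups, and each array left out.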

Additional observations from a re-analysis of the deposited data

Results flagged for a closer look

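The CsA change of 7 receptors at 11 days differed from its mean over 12, 24 and 48 h when the difference itself was tested with limma (Benjamini-Hochberg adjustment over 19935 genes, where 6.7% were called lower and 5.21% higher). It was -1.06 ± 0.10 (SE) for Ccr2 (adjusted p = 5.81e-08), -0.84 ± 0.15 for Ccr1 (adjusted p = 0.000281), -0.84 ± 0.15 for Ccr3 (adjusted p = 0.000422) and -0.83 ± 0.16 for Ccr7 (adjusted p = 0.000513). For Cxcr2 it was -0.57 ± 0.12 (adjusted p = 0.00214), with the CsA group near background at 11 days. Cxcr4 went the other way, with 0.52 ± 0.06 (adjusted p = 2.64e-07). All 3 arrays with CsA lay below all 3 of Flt3-L alone at 11 days for Ccr1, Ccr2, Ccr3, Ccr7 and Cxcr2, and above for Cxcr4.

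The difference for Ccr9, -0.49 ± 0.16 (adjusted p = 0.0448), lay close to the threshold: it was lost without 16 of the 24 arrays in turn (adjusted p from 0.0526 to 0.215). It was also lost in limma fits with an intensity trend and robust variances, a second quantile normalization or only the compared groups (adjusted p = 0.0669, 0.0763 and 0.059). Its size moved most without CsA array 2 of 11 days, to -0.31, and without CsA array 1 of 11 days, to -0.76.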

How the results depend on the processing

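Of 61 changes of a receptor called over the 11 comparisons, 47 were called under every alternative run, and none of the receptor changes that were called reversed. Fewer arrays, or fewer groups to estimate the spread from, can by themselves lower the counts, but some counts rose when an array was left out. The cause of the shifts was not tested. Receptors called with CsA at 12 h numbered 2, or 4 with array weights and 2 to 3 with 1 array left out. At 24 h 4 were called, or 3 to 4 with 1 array left out, and at 48 h 6, or 3 to 5. Against unstimulated cells 4 were called at 12 h of Flt3-L alone, or 2 with array medians subtracted and 2 to 3 with 1 array left out; at 24 h 5 were called, or 3 and 2 to 4. Over all genes, 1341 were called with CsA at 12 h, or 2111 with the replicate block, 5301 with array weights, 177 with only the compared groups and 332 to 3221 with 1 array left out (3221 without CsA array 3). At 24 h 754 were called, or 396 with only the compared groups and 475 to 594 with 1 array left out; at 48 h 899, or 451 and 586 to 693.

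In comparisons where the numbers did not pair all arrays, the replicate block called Ccr3 with CsA at 12 h (adjusted p = 0.0308) and the mean early change of Ccr2 (adjusted p = 0.0381). Beside these and the blocked values given with the results, it changed no other call of a receptor. Signals near background, as for Cxcr5 and for Cxcr2 at 11 days, limit how large a fall can appear.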
